A study of Mus musculus with 21 samples.

Results

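The 9 genes described here encode parts of the transforming growth factor beta (TGF-beta) pathway: the ligands Tgfb1, Tgfb2 and Tgfb3, the activin subunit Inhba, the latent-ligand binding protein Ltbp1, the receptors Tgfbr1, Tgfbr2 and Tgfbr3, and the induced matrix protein Tgfbi. They were chosen by symbol, and all 9 were found once each among the 24091 genes of the deposited table. The RNA came from C3H/10T1/2, a line of mesenchymal progenitors derived from mouse embryo, and the libraries are grouped by the histone H2B of the cells. In E71K, E76K and E113K a glutamate of H2B was replaced by lysine, and in E71Q, E76Q and E113Q the same glutamates by glutamine; E113 lies in the acidic patch of the nucleosome. WT cells carried H2B without a substitution, and all 7 groups were the same line grown in DMEM with serum. Each group had 3 libraries, 21 in all. The series describes 3 biological replicates, but the labels name neither separate clones nor how the H2B was introduced. An effect of the substitution and a difference between cell populations therefore cannot be told apart, and p-values measure the spread between these libraries.

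TGF-beta is secreted as a latent complex in which the mature dimer is held by its propeptide, and latent TGF-beta binding proteins anchor that complex in the matrix. Once released, the dimer binds the type II receptor, which recruits and phosphorylates the type I receptor, and this in turn phosphorylates Smad2 and Smad3. The type III receptor betaglycan presents ligand, TGF-beta2 in particular. Activins signal through their own receptors to the same Smads. In mesenchymal progenitors the pathway is known for driving matrix production and cartilage formation and for restraining fat cell differentiation.

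Levels are TPM, transcript abundance scaled to transcript length and to a fixed total per library, so levels of different genes can be compared and the read depth is unknown. Differences between groups are differences of mean log2(TPM + 1) with their SE, and a gene is called when its limma adjusted p (Benjamini-Hochberg over the genes that averaged 1 TPM or more) was below 0.05. The pseudocount understates the change of low genes. Tgfbi, with a mean of 0.991 TPM over the 21 libraries, fell just short of this minimum and is given without a call. The other 8 members passed, and each had a mean of at least 1.70 TPM in its lowest group. In these bulk samples fewer cells expressing a gene and less RNA per cell cannot be told apart.

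The libraries had the RNA of mesenchymal cells. All 9 mesenchymal markers averaged over 1 TPM, although Thy1 was at 0 in 1 library, and their summed level ran from 11709.1 to 19576.8 TPM. Of the 6 epithelial markers, Epcam was at 0 in 20 libraries and Krt18 in 16, but Krt14 reached 483.3 TPM, and the summed level was 81.2 to 487.7 TPM in E71K, 41.5 to 364.7 TPM in E71Q and at most 14.4 TPM elsewhere. The summed level of 4 markers was at most 3.51 TPM for endothelium and 2.13 TPM for blood cells. Markers of the fates open to this line differed too: the chondrocyte sum ran from 27.3 TPM in E113K to 744.7 TPM in E76Q, the smooth muscle sum from 64.5 TPM in E71Q to 582.9 TPM in E76Q, and the adipocyte sum was 30.3 to 70.9 TPM in E76K and at most 11.9 TPM elsewhere. Nearly all of the highest smooth muscle sum was Acta2 (581.6 TPM), with Tagln at most 2.52, Myh11 0.38 and Cnn1 0.245 TPM. Nearly all of the highest adipocyte sum was Fabp4 (70.9 TPM), with Adipoq at most 0.877 and Plin1 0.168 TPM. The chondrocyte sum came from Col2a1 and Col9a1, as Acan was at 0 in 17 libraries and Matn1 reached 2.1 TPM. These sums therefore do not show whole marker sets, and the part of these markers in the results below was not tested. Libraries of 4 groups did not resemble their mates closely. On the main axis of differences within groups (24% of that variance) E71K spanned 48.2, E71Q 36.4, E76K 28.1 and E113Q 17.1 units, against at most 3.4 in E76Q, E113K and WT. Replicate 3 of E71K, E76K and E113Q and replicate 1 of E71Q lay apart. The level of Mir6236, a single locus, took 30.6% of the TPM in E71K replicate 2 and 2.19% to 21.2% elsewhere, which lowers all other values of that library. The median difference of all genes from WT was 0.16 in E76K and 0.13 in E113K, and 0.01 in both once the libraries were rescaled to a common median ratio. The higher calls made up 70.8% of all calls in E76K and 53.1% after that rescaling, and 73.5% and 49.5% in E76K against E76Q. All 8 calls of members in E113K held under the rescaling.

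The 6 mutants differed from WT in 4 to 8 of the 8 members tested. In E113K all 8 were called, 6 higher and 2 lower, where 51% of all genes tested were called. In E71K 7 were called (26.7% of all genes), in E76Q and in E113Q 6 (44.3% and 30.6%), in E71Q 5 (44.2%) and in E76K 4 (33.2%). The limma F test across the 7 groups called all 8 members, beside 77.1% of all genes. A range clear of that of WT was common among all genes: 32.6% had one in E71K, 57.7% in E71Q, 63.8% in E76K, 72.8% in E76Q, 76.1% in E113K and 56.4% in E113Q. All 6 comparisons use the same 3 WT libraries, so their calls are not independent. When E71K and WT alone were fitted, only 3 of its 7 calls remained past the threshold, and Tgfb2 (adjusted p = 0.106), Tgfbr1 (0.0576), Tgfbr2 (0.0817) and Tgfbr3 (0.0543) missed it.

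**Figure D1:**
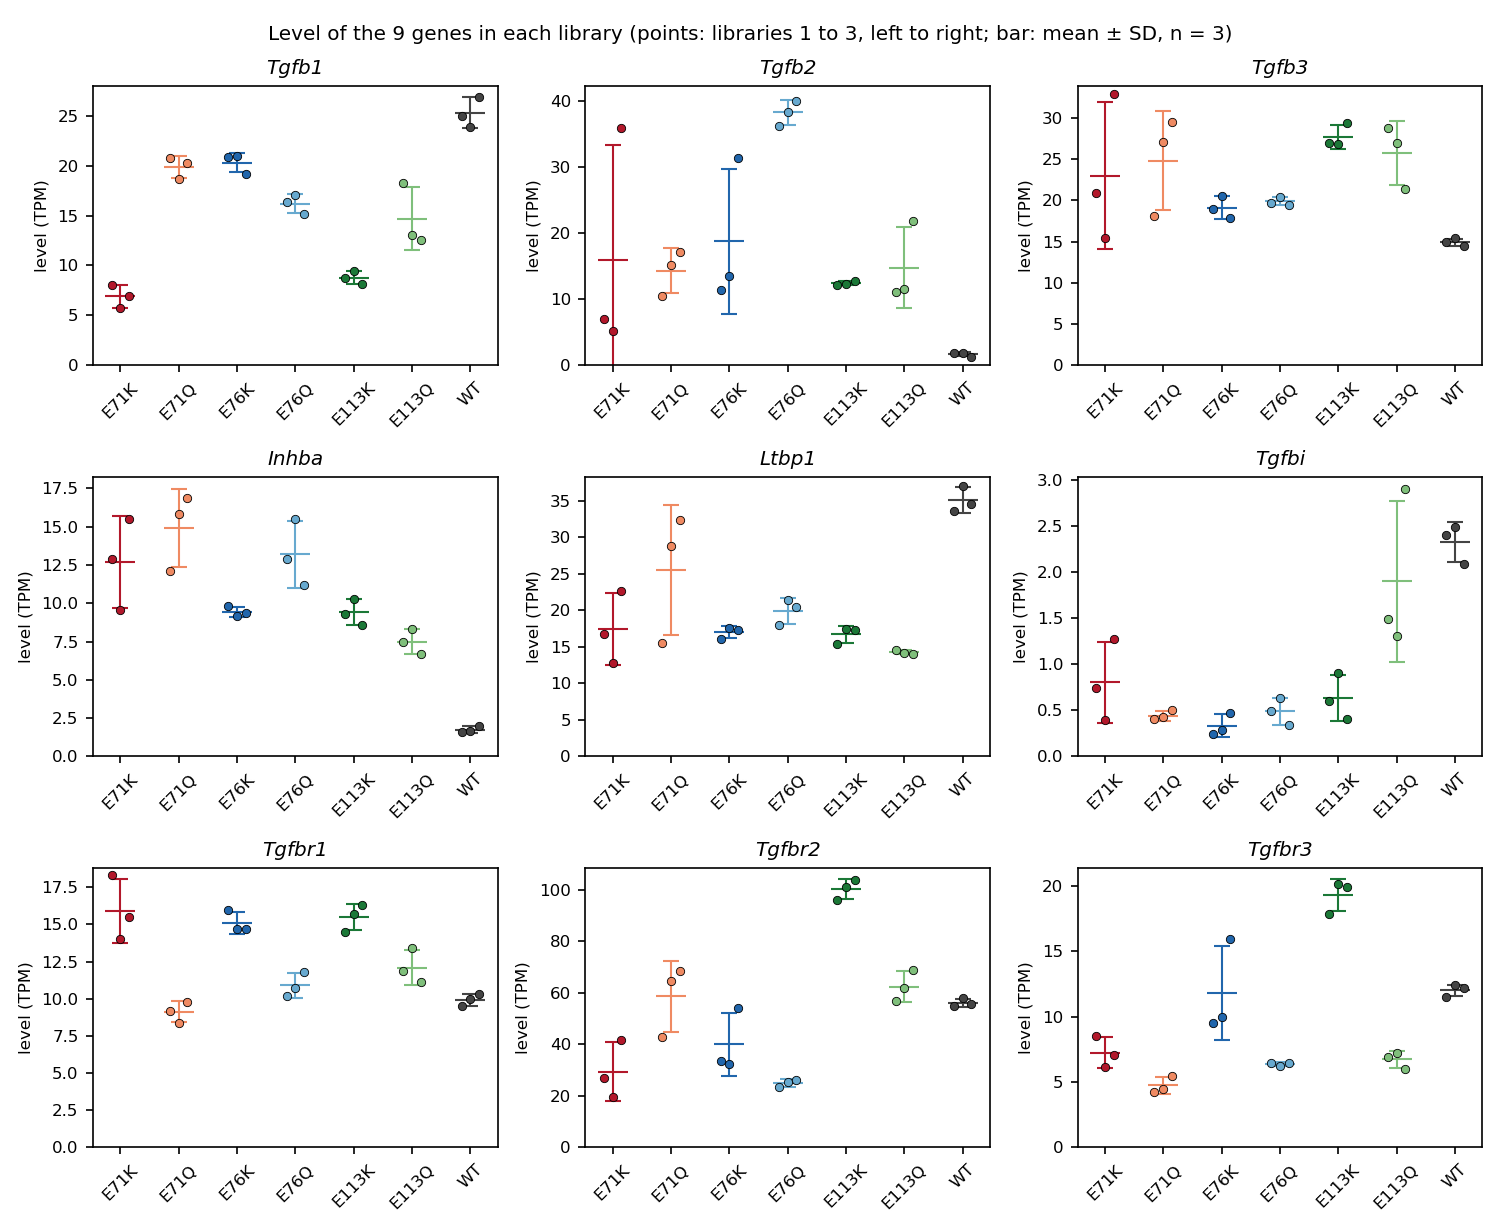
Level in TPM of each of the 9 genes (vertical axes, each from 0) in the 6 H2B mutants and WT, with 1 point per library and the mean ± SD of 3 libraries; the SD of Tgfb2 in E71K exceeds its mean and is cut at 0. Tgfb2 and Inhba are lowest in the WT libraries, and Tgfb1 and Ltbp1 are highest there.

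Tgfb2, the ligand that depends most on betaglycan, was higher in every mutant than in WT. It was at 36.3, 38.4 and 40.1 TPM in the 3 E76Q libraries, against 1.90, 1.85 and 1.35 TPM in WT. E71Q held 10.5, 15.2 and 17.1 TPM and E113K 12.2, 12.4 and 12.8 TPM. No mutant library came within the WT range. In the other 3 mutants a single library stood above its mates. E71K had 6.99, 5.14 and 36.0 TPM, E76K 11.4, 13.6 and 31.4 TPM, and E113Q 11.1, 11.5 and 21.8 TPM, the high value being replicate 3 each time. The difference from WT was largest in E76Q, at 3.87 ± 0.48 (SE; limma adjusted p = 6.14e-06), or 22.5 times the mean TPM of WT. It was 2.75 ± 0.48 in E76K, 2.49 ± 0.48 in E113Q, 2.48 ± 0.48 in E71Q, 2.33 ± 0.48 in E113K and 2.18 ± 0.48 in E71K, all called, with adjusted p from 0.000293 to 0.00227. Genes called higher in all 6 mutants made up 3.65% of those tested. Without replicate 3 the E71K difference was 1.38 (adjusted p = 0.00474), so that library carries a good part of its size. In the order of group means, E76Q stood clear of E76K and WT clear of E113K, while the ranges of all neighbours between them overlapped.

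In the 4 groups that spread along the axis, the Tgfb2 level differed with the position on it. The library that lay apart had 5.93 times the mean Tgfb2 of its mates in E71K, 2.52 times in E76K and 1.93 times in E113Q, and all 3 lay at the upper end of the axis. In E71Q the library that lay apart was at the lower end and had 0.65 times the Tgfb2 of its mates. Tgfbr2 differed in the same directions, at 1.81, 1.64 and 1.16 times its mates in E71K, E76K and E113Q and 0.646 times in E71Q. So did Tgfbi, which was near the floor, at 2.23, 1.78 and 2.07 times in those 3 groups and 0.866 times in E71Q. The E71Q value of Tgfbi was 0.402 TPM, against 0.424 and 0.505 TPM in its mates. In E71Q that library, replicate 1, had 21.2% of its TPM in Mir6236, against 9.9% and 5.47% in its mates, which lowers its other values. The part of this lowering in the E71Q ratios, of which that of Tgfbi was closest to its mates, was not tested. None of the other members kept these directions in all 4 groups. Tgfb3 was at 1.81, 0.899 and 0.768 times its mates in E71K, E76K and E113Q and 0.641 times in E71Q. The share of all genes that kept them is not given here. In E76Q and WT, which spanned little of the axis, Tgfb2 showed no such order: the WT library lowest on it held the highest WT level, 1.90 TPM. The upper end of the axis was set as the end where the proliferation marker Mki67 is low. Its direction on the axis is therefore partly built in. In 3 of the 4 groups Mki67 was lower in the library that lay apart. E71K replicate 3 had 31.4 TPM against 46.0 and 65.7 TPM in its mates. E76K replicate 3 had 27.0 against 41.4 and 50.1 TPM, and E113Q replicate 3 had 13 against 45.7 and 48.9 TPM. In E71Q Mki67 was at 16.2 TPM in replicate 1 and at 14.1 and 17.2 TPM in its mates. The sum of 4 markers of dividing cells ran from 79.3 to 82.3 TPM in E113K, 133.4 to 164.7 TPM in E71Q and 205.3 to 208.9 TPM in E76Q. It ran from 198.4 to 414.1 TPM in E76K, 124.6 to 405.4 TPM in E113Q, 269.1 to 529.6 TPM in E71K and 421.3 to 465.0 TPM in WT. The part of cell division in the Tgfb2 result was not tested. Mki67 was at 37.7 to 43.3 TPM in WT. Without the 4 libraries that lay apart, all 6 differences from WT stayed called, from 1.38 in E71K to 3.87 in E76Q. As these libraries were picked from the data, that fit understates the spread between replicates.

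**Figure D2:**
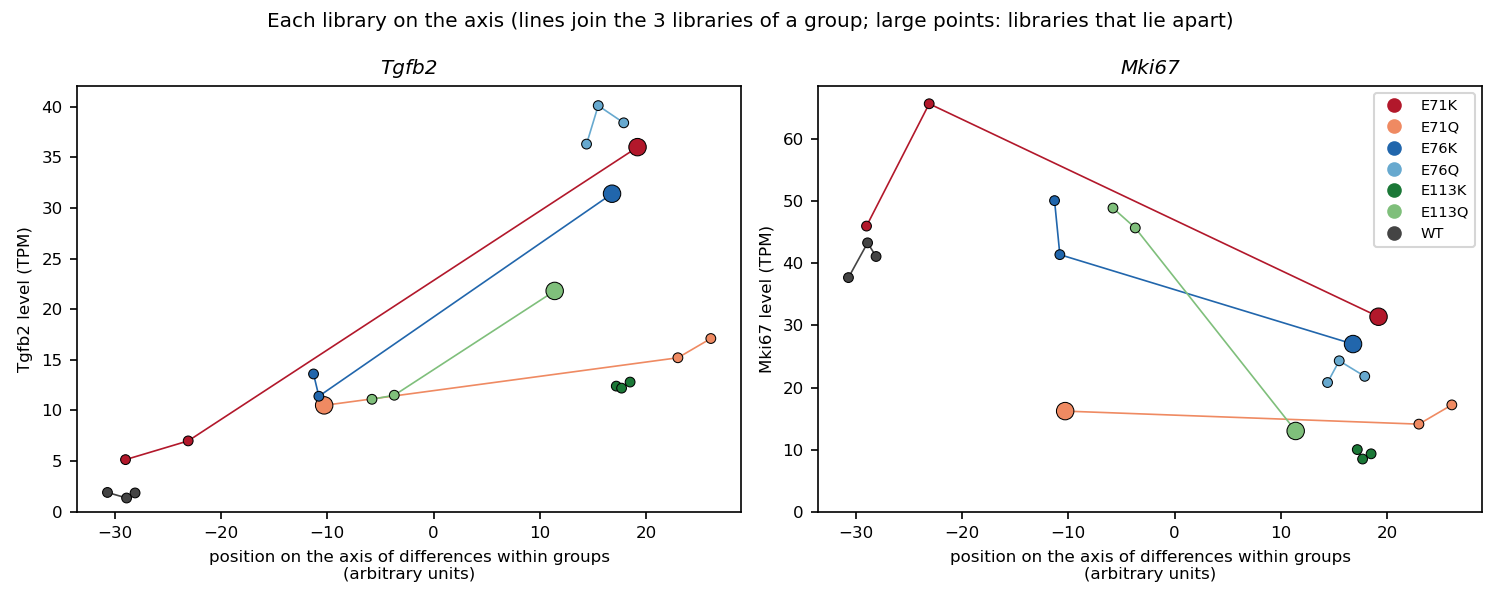
Tgfb2 level (left, TPM) and Mki67 level (right, TPM) of each library against its position on the main axis of differences within groups (arbitrary units), with the 3 libraries of a group joined and the 4 libraries that lay apart drawn large. Within E71K, E76K and E113Q, Tgfb2 is highest in the library at the upper end, at 36.0, 31.4 and 21.8 TPM. Mki67 is lower there than in the mates, and the upper end was set as the end with low Mki67.

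Inhba encodes the beta A subunit that forms activin A, and it was higher in every mutant library than in any WT library. E71Q had 12.1, 15.8 and 16.9 TPM, E76Q 12.9, 15.5 and 11.2 TPM and E71K 12.9, 9.57 and 15.5 TPM. E76K had 9.82, 9.16 and 9.35 TPM, E113K 9.32, 10.3 and 8.59 TPM and E113Q 7.49, 8.29 and 6.66 TPM, against 1.58, 1.65 and 1.99 TPM in WT. The lowest mutant library, at 6.66 TPM, stood well above the highest WT library at 1.99 TPM. The difference from WT ran from 1.63 ± 0.16 in E113Q (limma adjusted p = 3.9e-07) to 2.53 ± 0.16 in E71Q (8.78e-10), or 4.3 to 8.58 times the mean TPM of WT. All 6 were called in every setting tried. In the order of means from E71Q down, WT was clear of E113Q and E113Q of E113K, and the other neighbours overlapped.

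Tgfb3, the third ligand, was already abundant in WT and differed less. Its mean was 27.7 ± 1.45 TPM in E113K, 25.7 ± 3.85 TPM in E113Q and 24.8 ± 5.97 TPM in E71Q, against 14.9 ± 0.456 TPM in WT (SD, n = 3 each). These 3 differences were called, at 0.85 ± 0.20, 0.74 ± 0.20 and 0.67 ± 0.20 (adjusted p = 0.0022, 0.0103 and 0.0124). E71K was at 23.0 ± 8.95 TPM, E76Q at 19.9 ± 0.502 TPM and E76K at 19.1 ± 1.37 TPM, with adjusted p of 0.0623, 0.126 and 0.215. The ranges of E76Q and E76K did not overlap that of WT. Both were called without the libraries that lay apart (adjusted p = 0.00233 and 0.00834), a choice of libraries that lowers the spread within groups. E71K passed without its replicate 2 (adjusted p = 0.00413), which held 15.4 TPM and had 30.6% of its TPM in Mir6236. With all libraries kept but rescaled, limma called E71K (0.54, 0.00145) and E76Q (0.39, 0.0106), and E76K did not pass (0.18, 0.233). The E71Q call was lost without E71Q replicate 2 (adjusted p = 0.0532) or replicate 3 (0.066). No mutant library fell below 15.4 TPM.

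Tgfb1, the founding ligand of the family, moved the opposite way to Tgfb2. It was at 8.06, 5.73 and 6.98 TPM in E71K and at 8.77, 9.47 and 8.13 TPM in E113K, against 25.0, 23.9 and 26.9 TPM in WT. E113Q had 18.3, 13.1 and 12.6 TPM and E76Q 16.4, 17.1 and 15.2 TPM. E71Q had 20.8, 18.7 and 20.3 TPM and E76K 20.9, 21 and 19.2 TPM. Every mutant library was below every WT library. The difference was -1.74 ± 0.13 in E71K (limma adjusted p = 9.18e-09), where WT had 3.65 times the mean TPM, and -1.43 ± 0.13 in E113K (1.12e-07). It was -0.76 ± 0.13 in E113Q and -0.61 ± 0.13 in E76Q (adjusted p = 0.000213 and 0.00105). The E71Q difference of -0.33 ± 0.13 passed narrowly (0.0465), and leaving out any 1 of the 6 libraries compared ended the call, with adjusted p from 0.0525 to 0.145. E76K, at -0.30 ± 0.13, did not pass (0.0815) but did after the rescaling (-0.46, 0.00686). In the order of means WT, the pair of E76K and E71Q, the pair of E76Q and E113Q, then E113K, then E71K had ranges clear of each other, while those within either pair overlapped.

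The make-up of the ligand transcripts differed accordingly. Tgfb1 held between 17.8 ± 7.47% (E71K) and 35.6 ± 6.64% (E76K) of the summed TPM of the 3 ligands in the mutants, against 60.3 ± 2.5% in WT (SD, n = 3). Tgfb2 held 51.4 ± 1.89% in E76Q, 30.9 ± 13% in E76K, 28.8 ± 16.1% in E71K, 26.8 ± 10.7% in E113Q, 25.5 ± 0.079% in E113K and 23.9 ± 2.34% in E71Q, against 4.06 ± 0.779% in WT. By group means, Tgfb3 was the largest part in E113K (56.5 ± 1.73%), E71K (53.3 ± 8.65%), E113Q (46.7 ± 7.37%) and E71Q (41.7 ± 4.36%), against 35.6 ± 1.79% in WT. Single libraries differed from this: Tgfb2 was largest in E71K replicate 3 (47.4%) and E113Q replicate 3 (39.1%), and Tgfb1 in E71Q replicate 1 (42.1%). The summed level was 72.3 to 75.9 TPM in E76Q, 49.4 to 66.9 TPM in E71Q, 51.3 to 68.4 TPM in E76K, 51.5 to 58.3 TPM in E113Q and 47.9 to 50.3 TPM in E113K, against 41.1 to 42.8 TPM in WT. Only E71K crossed the WT range, with 26.2 TPM in its lowest and 75.8 TPM in its highest library. No test was made of these shares.

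**Figure D3:**
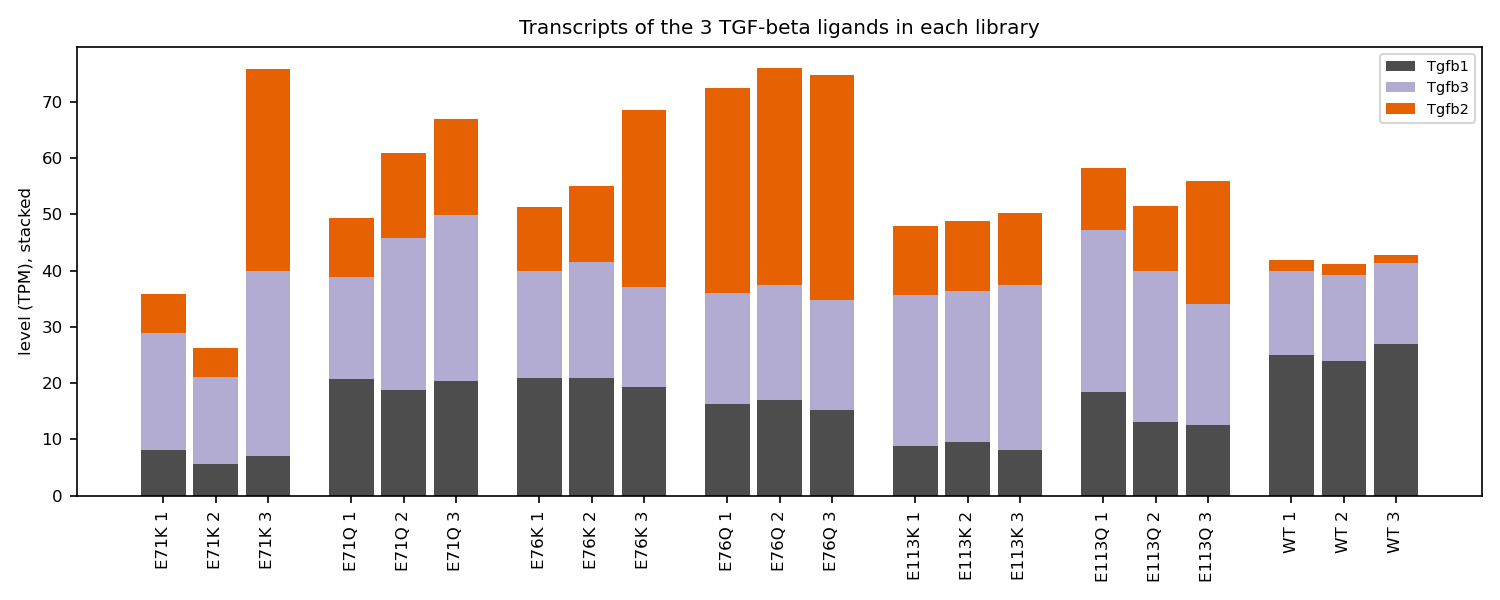
Stacked levels (TPM) of Tgfb1, Tgfb3 and Tgfb2 in each of the 21 libraries, the mutants to the left and WT to the right. Tgfb2 makes up 50.1% to 53.6% of the sum in E76Q, against 3.16% to 4.53% in WT, where Tgfb1 makes up 58.1% to 63.0%.

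Ltbp1, which tethers latent TGF-beta to the matrix, was lower in the mutants. E113Q had 14.6, 14.2 and 14 TPM, E113K 15.4, 17.5 and 17.3 TPM and E76K 16.1, 17.6 and 17.3 TPM, against 33.6, 37.0 and 34.6 TPM in WT. E71K had 16.8, 12.8 and 22.6 TPM and E76Q 18.0, 21.4 and 20.4 TPM. In E71Q replicate 1, at 15.5 TPM, stood well below its mates at 28.8 and 32.4 TPM. All mutant libraries lay below the WT range. The share of all genes with ranges clear of WT in all 6 mutants is not given here. In single mutants it was 32.6% (E71K) to 76.1% (E113K). By limma calls, a different measure, 2.95% of genes were lower in all 6 mutants, which Tgfb1 and Ltbp1 each missed by 1 mutant. The difference was -1.24 ± 0.20 in E113Q (limma adjusted p = 0.000175), -1.03 ± 0.20 in E113K, -1.01 ± 0.20 in E71K, -1.0 ± 0.20 in E76K and -0.79 ± 0.20 in E76Q (0.000537 to 0.00492). E71Q, at -0.51 ± 0.20, missed the threshold (0.0536) and passed it after the rescaling (0.00285).

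Tgfb2 and Inhba, higher than WT in all mutant libraries, and Tgfb1 and Ltbp1, lower in all of them, are shown with the 250 bases before a RefSeq transcription start (GRCm38.p6, the build of mm10), 5′ to 3′ on the strand of the gene. RefSeq promoter windows were found for 7 of the 9 members. The windows of Tgfb2 and Inhba, and the last bases of the Ltbp1 window, lie inside the gene spans given below. Each therefore precedes a start of the gene that is not its outermost end. Ltbp1 had another window, chr17:75178531-75178780, which is not shown and holds none of the motifs. Capitals mark matches, on either strand, to any of 5 motifs. These were the cAMP response element written as TGACGTCA, the AP-1 element of Fos and Jun dimers written as TGACTCA, the E-box of basic helix-loop-helix factors written as CACGTG, the box bound by the TATA-binding protein at core promoters written as TATAAA, and the palindrome known to be bound by Smad proteins, written as GTCTAGAC. None of these overlaps another in the windows shown.
Tgfb2, chr1:186705990-186706239, minus strand: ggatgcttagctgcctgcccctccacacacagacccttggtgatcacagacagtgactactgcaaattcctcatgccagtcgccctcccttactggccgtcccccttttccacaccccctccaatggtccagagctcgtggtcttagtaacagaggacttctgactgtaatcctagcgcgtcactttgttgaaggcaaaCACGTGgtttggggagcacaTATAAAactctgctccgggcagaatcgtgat
Inhba, chr13:16011601-16011850, plus strand: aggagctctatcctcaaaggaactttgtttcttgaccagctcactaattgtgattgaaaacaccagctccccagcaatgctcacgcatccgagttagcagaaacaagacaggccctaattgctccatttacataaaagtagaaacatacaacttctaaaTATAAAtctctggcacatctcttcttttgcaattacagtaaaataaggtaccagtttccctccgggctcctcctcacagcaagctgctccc
Tgfb1, chr7:25686752-25687001, plus strand: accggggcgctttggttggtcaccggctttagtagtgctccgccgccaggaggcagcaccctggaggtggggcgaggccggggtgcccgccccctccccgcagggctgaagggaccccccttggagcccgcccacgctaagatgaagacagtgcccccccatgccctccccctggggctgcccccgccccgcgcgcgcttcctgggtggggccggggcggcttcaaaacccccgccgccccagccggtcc
Ltbp1, chr17:75005279-75005528, plus strand: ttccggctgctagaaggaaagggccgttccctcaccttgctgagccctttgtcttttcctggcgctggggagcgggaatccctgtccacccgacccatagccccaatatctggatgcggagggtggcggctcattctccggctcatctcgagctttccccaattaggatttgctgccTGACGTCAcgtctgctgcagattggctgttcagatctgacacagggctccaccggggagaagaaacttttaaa
The Tgfb2 window holds an E-box that begins 51 bases before the start and a TATAAA at 31 bases, that of Inhba a TATAAA at 91 bases, and the Ltbp1 window shown a full cAMP response element at 73 bases. The Tgfb1 window has no match to any of the 5. Of 32851 promoter windows of this length, 12.4% hold TATAAA, 6.02% the E-box, 4.46% the AP-1 site, 1.55% the full cAMP response element and 0.167% the Smad palindrome. These matches are letters in a window, not bound sites, and the motifs were chosen with the sequences in view.

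Tgfbr1, the type I receptor, was higher in the 3 lysine mutants. It was at 18.3, 14 and 15.5 TPM in E71K, 16, 14.7 and 14.7 TPM in E76K and 14.5, 15.7 and 16.3 TPM in E113K, against 9.52, 9.97 and 10.3 TPM in WT. The differences were 0.62 ± 0.10, 0.56 ± 0.10 and 0.59 ± 0.10 in that order (limma adjusted p = 0.000172, 0.000487 and 0.000179). The glutamine mutants were at 12.1 ± 1.17 TPM in E113Q, 10.9 ± 0.827 TPM in E76Q and 9.14 ± 0.709 TPM in E71Q, and none passed (0.0678, 0.366 and 0.407), although E113Q lay above the WT range and passed without its replicate 3 (0.0478). The lysine mutant was higher than the glutamine mutant at each residue, by 0.74 ± 0.10 at E71, 0.44 ± 0.10 at E76 and 0.33 ± 0.10 at E113 (adjusted p = 8.13e-05, 0.00361 and 0.0246). Over all genes, 12.8%, 23.4% and 14.6% were called higher in these comparisons, and 12.3%, 8.46% and 13.3% lower. The E113 call was lost when E113K replicate 2 or 3 or E113Q replicate 1 or 3 was left out (adjusted p = 0.0707 to 0.0915), and the E71 call when E71K and E71Q alone were fitted (0.106). At E76 it held in every setting.

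Tgfbr2, the type II receptor and the most abundant of the 9 genes, differed in both directions. E113K had 96.1, 101.0 and 103.9 TPM, the highest values of any group, against 54.9, 57.9 and 55.8 TPM in WT. E76Q had 23.4, 25.5 and 26.0 TPM, the lowest group mean, and E71K 27.0, 19.4 and 41.9 TPM. The E113K difference was 0.82 ± 0.23 (limma adjusted p = 0.00615), that of E76Q -1.14 ± 0.23 (0.000684) and that of E71K -0.98 ± 0.23 (0.00349). E76K had 33.7, 32.3 and 54.2 TPM, all below WT, and did not pass (-0.52 ± 0.23, 0.0901). Without its replicate 3 it did (-0.75, 0.0255). E113Q at 62.5 ± 6.13 TPM and E71Q at 58.7 ± 13.7 TPM overlapped WT at 56.2 ± 1.52 TPM, with differences of 0.15 ± 0.23 and 0.03 ± 0.23.

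Tgfbr3 encodes betaglycan, and E113K again stood highest. It had 17.8, 20.1 and 19.9 TPM in E113K, against 11.5, 12.4 and 12.2 TPM in WT, a difference of 0.64 ± 0.15 (limma adjusted p = 0.00232). E71Q had 4.25, 4.50 and 5.47 TPM, E76Q 6.45, 6.21 and 6.43 TPM, E113Q 6.92, 7.21 and 6.02 TPM and E71K 8.55, 6.15 and 7.04 TPM. All libraries of these 4 mutants were below WT, with differences of -1.19 ± 0.15, -0.82 ± 0.15, -0.76 ± 0.15 and -0.67 ± 0.15 and adjusted p from 7.97e-06 to 0.00291. E76K, with 9.48, 9.98 and 15.9 TPM, spanned the WT range and did not pass (-0.06 ± 0.15, 0.789). E113K was therefore the 1 mutant in which all 3 receptors were called higher.

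The ratio of type II to type I receptor transcripts separated the groups. It was 6.49 ± 0.132 in E113K, 6.45 ± 1.59 in E71Q and 5.20 ± 0.872 in E113Q, against 5.66 ± 0.221 in WT (SD, n = 3). It was 2.66 ± 0.885 in E76K, 2.29 ± 0.0922 in E76Q and 1.85 ± 0.733 in E71K, where the highest single library, E76K replicate 3 at 3.68, was below the lowest WT library at 5.40. No test was made of this ratio.

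**Figure D4:**
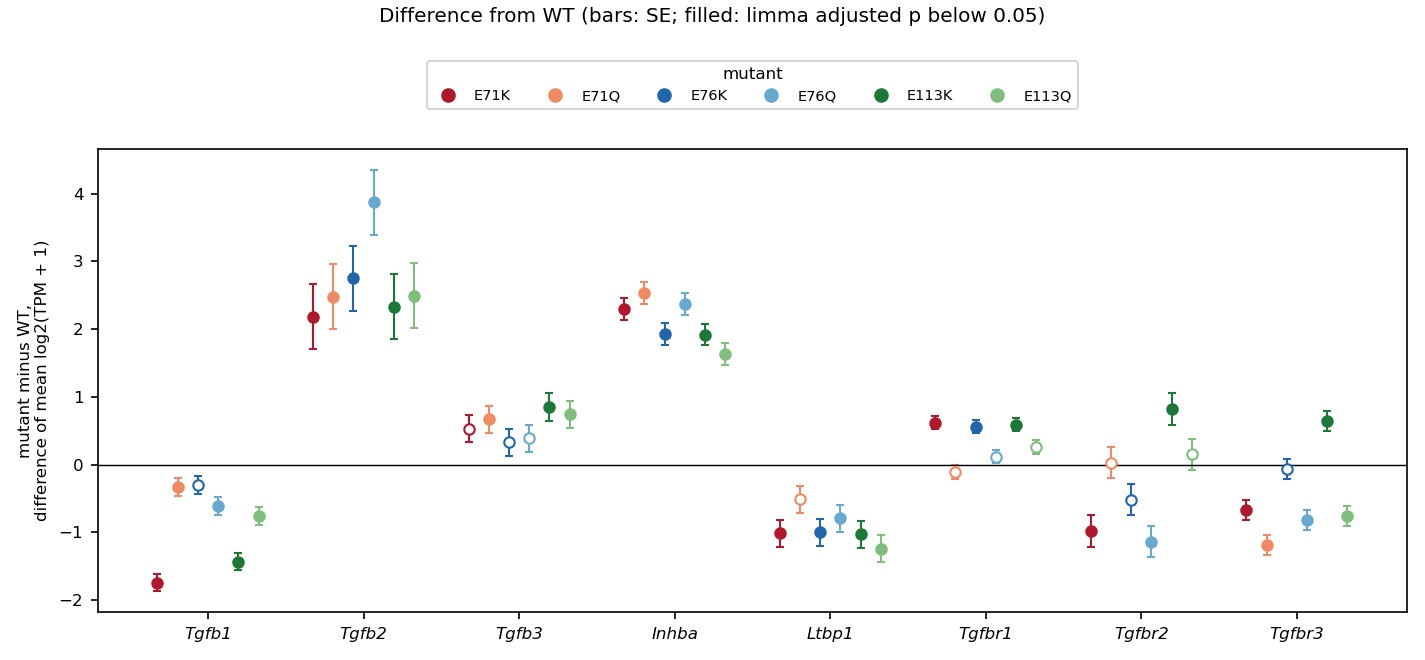
Difference of mean log2(TPM + 1) between each mutant and WT (vertical axis) for the 8 members tested, with SE bars and filled points for a limma adjusted p below 0.05. Tgfb2 and Inhba lie between 1.63 and 3.87 in all 6 mutants, Tgfb1 and Ltbp1 lie below 0 in all 6, and the receptors differ between mutants.

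Tgfbi, a secreted matrix protein named for its induction by TGF-beta, was near the floor in all groups. E113Q had 1.49, 1.31 and 2.90 TPM and overlapped WT, at 2.41, 2.49 and 2.09 TPM. In the other 5 mutants no library exceeded 1.27 TPM, and E76K was lowest at 0.241, 0.289 and 0.474 TPM. E71K had 0.745, 0.395 and 1.27 TPM, E113K 0.603, 0.901 and 0.403 TPM, E76Q 0.495, 0.635 and 0.337 TPM and E71Q 0.402, 0.424 and 0.505 TPM. These 5 ranges lay below that of WT. When no minimum level was set, these 5 differences passed limma's test, from -0.91 in E71K (adjusted p = 0.00167) to -1.32 in E76K (4.73e-05), and E113Q did not (-0.24, 0.414).

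Lysine and glutamine at the same residue were compared directly. Besides Tgfbr1, Tgfbr3 was higher with lysine at every residue, by 1.39 ± 0.15 at E113 (limma adjusted p = 4.3e-06), 0.76 ± 0.15 at E76 (0.000992) and 0.52 ± 0.15 at E71 (0.02). In E113K its level was 2.87 times that of E113Q. Tgfbr2 was higher in E113K than in E113Q (0.68 ± 0.23, 0.034) and in E76K than in E76Q (0.62 ± 0.23, 0.0455), but lower in E71K than in E71Q (-1.01 ± 0.23, 0.00431). Tgfb1 was lower in E71K than in E71Q by -1.41 ± 0.13 (5.73e-07) and in E113K than in E113Q by -0.66 ± 0.13 (0.001), and E76K and E76Q differed by 0.31 ± 0.13 (0.0745). Inhba was lower in E76K than in E76Q (-0.43 ± 0.16, 0.0443), a call lost with a pseudocount of 0.1 (0.0505) and under other settings. The Tgfbr3 call at E71 was lost without E71K replicate 1 (0.104), E71Q replicate 1 (0.0554) or E71Q replicate 2 (0.0706). Each residue had 4 of 8 members called, where 25.1% (E71), 31.9% (E76) and 28% (E113) of all genes were, and where the ranges of 22.6%, 58.5% and 52.8% of all genes did not overlap. At E76 the calls of Tgfbr2 and Inhba, and at E113 that of Tgfbr2, were each lost in 5 of the 6 fits that leave out 1 library of the pair (highest adjusted p = 0.213, 0.189 and 0.108). In E71K against E71Q, 1 member was called when only those 6 libraries were fitted, and all 8 without the libraries that lay apart.

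Tgfb2 did not pass in these 3 comparisons as fitted, but E76K against E76Q and E71K against E71Q passed under other settings. E76K and E76Q differed by -1.12 ± 0.48 (limma adjusted p = 0.0847), with no overlap of the libraries. This passed with the replicate block (-1.12, 0.0418), after the rescaling (-1.27, 0.0292), without E76K replicate 3 (-1.55, 0.0289) and without all libraries that lay apart (2.91e-07). E71K and E71Q differed by -0.30 ± 0.48, or -1.10 without E71K replicate 3 (0.0154) and -1.29 without all libraries that lay apart (3.72e-06). The libraries that lay apart were picked from these data for their distance from their mates. Leaving them out lowers the spread within groups, so these adjusted p do not measure the spread between replicates. E113K and E113Q differed by -0.16 ± 0.48. Tgfb3 differed by -0.14 at E71, -0.06 at E76 and 0.11 at E113, and none passed.

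The other genes of the pathway were counted on 5 lists, with 5 genes standing on more than 1 of them. The lists were chosen with earlier results of these data known. A share of calls above that of all genes is therefore a description, not an independent test. Of 30 target genes tested, 18 rose and 2 fell in E76Q, 16 and 4 in E71Q, 15 and 2 in E113K, 14 and 2 in E71K, 12 and 3 in E113Q and 12 and 3 in E76K. The limma calls over all genes were 22% higher and 22.4% lower in E76Q, 20.7% and 23.5% in E71Q, 30.3% and 20.7% in E113K, 12.5% and 14.2% in E71K, 17.9% and 12.7% in E113Q and 23.5% and 9.67% in E76K. The median difference of the target list was 0.36 to 0.94, beside 0.00 to 0.16 for all genes. Fn1, the matrix glycoprotein fibronectin, rose in all 6, most in E76Q with a mean of 2376.5 ± 316.7 TPM, where WT had 293.8 ± 4.73 TPM (SD, n = 3; adjusted p = 4.17e-06). Snai2, a transcription factor of epithelial-mesenchymal transition, also rose in all 6, and Plod2, a collagen lysyl hydroxylase, in 5. Postn, the matrix protein periostin, rose in E113K and E76Q and fell in E71Q. Several of these genes also respond to other signals.

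Of 15 genes for latent binding and activation, 11 rose and 0 fell in E113K by limma, and 4 to 7 rose and 1 to 3 fell in each other mutant. Over all genes, 30.3% were called higher and 20.7% lower in E113K. In the other mutants 12.5% to 23.5% of all genes were called higher and 9.67% to 23.5% lower. Thbs1, thrombospondin 1, which can activate latent TGF-beta, rose in all 6 mutants, to a mean of 93.6 ± 11.5 TPM in E76Q, where WT had 4.57 ± 0.316 TPM (SD, n = 3; difference 4.08 ± SE 0.18, adjusted p = 1.26e-11). The integrin subunit Itgb3 rose in E71K, E71Q, E76Q and E113Q. The plasminogen activator Plau fell in E71K, E71Q and E76Q and rose in E76K and E113K, and the TGF-beta-binding proteoglycan Dcn rose in E71K and E71Q and fell in E76K. Among 7 further receptors and coreceptors, 1 to 3 rose and 1 fell in each mutant, beside the same shares of all genes. Eng, the coreceptor endoglin, fell to between 1.13 ± 0.323 TPM in E71K and 1.96 ± 0.102 TPM in E71Q in the 4 mutants of E71 and E76, against 20.7 ± 1.35 TPM in WT. It was at 19.8 ± 1.58 TPM in E113K (adjusted p = 0.763) and 13.2 ± 2.46 TPM in E113Q (0.00368). Acvr2a, an activin type II receptor, rose in all mutants except E113K (adjusted p = 0.952). Acvr1 rose only in E113K (0.79 ± SE 0.16), and Acvr1b rose in E76K, E76Q and E113K.

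Of 23 Smads and inhibitors of the signal, 4 to 8 rose and 0 to 5 fell. These were 7 and 1 in E71K, 7 and 5 in E71Q and 8 and 0 in E76K. They were 7 and 3 in E76Q, 8 and 3 in E113K and 4 and 4 in E113Q. Over all genes, 12.5% (E71K) to 30.3% (E113K) were called higher and 9.67% (E76K) to 23.5% (E71Q) lower. The counts were not tested against these shares. Smad3, which carries the TGF-beta signal, fell in E71Q (8.59 ± 2.24 TPM), E71K (13.7 ± 5.41 TPM) and E113Q (14.5 ± 1.05 TPM), against 31.7 ± 1.25 TPM in WT, and did not pass in the other 3. Smad6, an inhibitory Smad of the BMP branch, rose in all 6, and the feedback inhibitor Pmepa1 rose in E113K (47.4 ± 1.96 TPM against 11.2 ± 0.657 TPM in WT), E76Q and E71Q. Wwp2 had the largest difference of the genes named from this list, 2.37 ± SE 0.18 in E71Q. It also rose in E76Q, E71K and E113Q, and was not called in E76K or E113K. Of 5 genes on the list of activin subunits and antagonists besides Inhba, 1 to 4 rose and 0 fell, beside the same shares of all genes. The list also holds Gdf11, a related ligand, which rose only in E76Q, and Fstl1, which rose in E76Q and E113K. Fst, the activin antagonist follistatin, was higher than in WT in all 6 mutants, as was Inhba. Fst ran from 7.34 ± 1.58 TPM in E71Q to 16.1 ± 6.93 TPM in E76K, against 4.04 ± 0.42 TPM in WT (limma adjusted p = 2.98e-05 to 0.0227). The order of the mutants differed, as mean Inhba was highest in E71Q, at 14.9 TPM, and was 9.44 TPM in E76K.

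**Figure D5:**
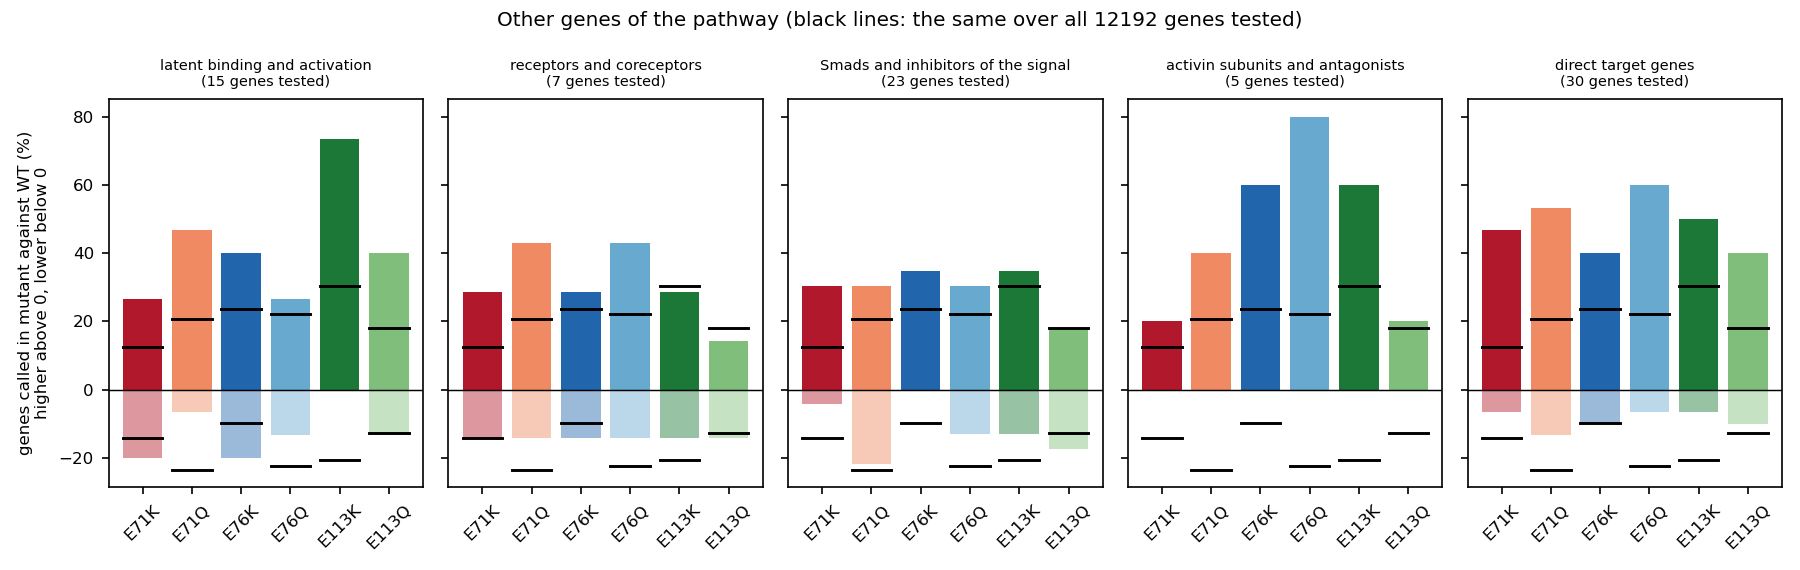
Share of the tested genes of each list called higher (above 0) or lower (below 0) in each mutant against WT, with black lines for the same share over all genes tested. The target genes rise above the line for higher calls in all 6 mutants, by the counts of 12 to 18 of 30 given in the text. The lists were chosen with earlier results of these data known.

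Genes with the most similar pattern were sought among the 9922 genes averaging 5 TPM or more, by Pearson r of log2(TPM + 1) over the 21 libraries, which share groups and library totals. Those most like Tgfb2 were Tmed3, Triqk and Ppic (0.956 to 0.954), and those most like Inhba were Pip4k2a, Mid2 and Gprin3 (0.967 to 0.949). For Tgfb1 they were Il17ra, Smim3 and Pak1 (0.902 to 0.856), for Tgfb3 Nek9, Eps15l1 and Gab1 (0.926 to 0.912) and for Ltbp1 Epn2, Spata5 and Canx (0.901 to 0.874). For the receptors the closest were Fnbp1l with Tgfbr1 (0.923), Pcyt1a with Tgfbr2 (0.948) and Socs5 with Tgfbr3 (0.955). For Tgfbi it was Ppp1r1b (0.845). None of the closest genes was another member.

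The genes lie on 8 chromosomes of GRCm38.p6 by their Entrez Gene identifiers: Tgfb1 (21803) at chr7:25687002-25705077, Tgfb2 (21808) at chr1:186622787-186709697, Tgfb3 (21809) at chr12:86056743-86079041 and Inhba (16323) at chr13:16004256-16031609. Tgfbi (21810) is on the same chromosome as Inhba, at chr13:56609586-56639359. Ltbp1 (268977) is at chr17:75005480-75392512, Tgfbr1 (21812) at chr4:47353222-47414926, Tgfbr2 (21813) at chr9:116087695-116175363 and Tgfbr3 (21814) at chr5:107106567-107289629. Exons of other annotated genes cover 124 of 5791 exon bases of Tgfb2 (Gm29491, antisense) and 297 of 6545 of Tgfbr3 (Gm43422). Antisense transcripts Gm37804 and Gm48008 cover 163 and 257 of 3383 exon bases of Tgfb3. Whether the counting used strand is not given in the sources used here, so reads of the Tgfb2 and Tgfb3 stretches cannot be told apart. Gm43422 lies on the same strand as Tgfbr3, so strand could not tell apart the reads of that stretch.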

How the data were processed

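RNA-seq values of 21 libraries, 3 in each of 7 groups, were analysed. The deposited values are TPM, made by the authors for 24091 genes; each library sums to between 999897 and 999931 TPM, so read totals are unknown. The submitters' processing notes name Salmon, featureCounts 1.4.4, DESeq and mm10, without roles. Per the labels' protocols, the kits were RNeasy Mini for RNA and NEBNext Ultra II for libraries. The authors' table of group means was not used.

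All 21 libraries were fitted in 1 model on log2(TPM + 1) with limma 3.58.1 (R 4.3.3), with an intensity trend, 14 residual degrees of freedom and Benjamini-Hochberg adjustment within each comparison over genes averaging 1 TPM or more. The method was tested on simulated data. Alternatives changed the pseudocount (0.1 or 5), the minimum level (none or 5 TPM), the scaling (median ratio over 8056 genes above 5 TPM in every library), the libraries fitted and the replicate block, or left out libraries. The axis is the first principal component of deviations from group means, computed without the group scored. Its upper end was set as the end with low Mki67. In a group spanning over 10 units, the library farthest from its mates was said to lie apart. Adjusted p from fits without these libraries understate the spread between replicates, as the libraries were picked from these data. From each pathway list up to 4 genes were named, those with a mean of at least 5 TPM and the largest called difference from WT. The members, lists and this rule were chosen with earlier results of these data known.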

Additional observations from a re-analysis of the deposited data

Results flagged for a closer look

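The difference between lysine and glutamine was not the same at the 3 residues for 5 of the members, by a limma test of the difference between differences, adjusted over all genes. These tests were added with the results of the single comparisons known, and their alternatives were chosen after seeing the data. Between E76 and E71 it was called for 21.7% of all genes. The lysine minus glutamine value of Tgfb1 was 0.31 at E76 and -1.41 at E71, a gap of 1.72 ± 0.18 (SE; adjusted p = 1.6e-06). Tgfbr2, at 0.62 and -1.01, had a gap of 1.63 ± 0.32 (0.00125).

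Between E113 and E71, where 32.7% of genes were called, 4 members differed. The lysine minus glutamine value of Tgfb1 was -0.66 at E113 and -1.41 at E71, a gap of 0.75 ± 0.18 (limma adjusted p = 0.00452). That of Tgfbr2 was 0.68 and -1.01, a gap of 1.69 ± 0.32 (0.00078). Betaglycan, Tgfbr3, had 1.39 and 0.52, a gap of 0.88 ± 0.22 (0.00495). Tgfbr1 had 0.33 and 0.74, a gap of -0.41 ± 0.15 (0.043).

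Between E113 and E76, where 29.5% of genes were called, 3 members differed. Tgfb1 had -0.66 at E113 and 0.31 at E76, a gap of -0.97 ± 0.18 (limma adjusted p = 0.000697). Inhba had 0.29 and -0.43, a gap of 0.73 ± 0.22 (0.02). Tgfbr3 had 1.39 and 0.76, a gap of 0.63 ± 0.22 (0.0341).

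Of these 9 gaps, 6 stayed past the threshold in all 7 other settings and in all 12 fits with 1 library left out. The Tgfbr3 gap between E113 and E76 was lost in 9 of those 12 (limma adjusted p up to 0.104) and with no minimum level (0.0521). That of Tgfbr1 was lost in 6 of 12 (up to 0.113), with no minimum level and with the replicate block (up to 0.0562). That of Inhba was lost in 2 of 12 (up to 0.0614). No gap changed sign.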

How the results depend on the processing

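For the 8 members tested, over the 9 comparisons, 532 of the values recomputed under other settings kept direction and call, 25 gained the call, 17 lost it and 2 turned direction; when 1 library was left out, 384 kept both, 9 gained the call, 30 lost it and 9 turned. No value that turned was called in the first place. Those were Tgfb2 in E113K against E113Q (0.133 without the libraries that lay apart; -0.3247 to 0.133 with 1 library left out), Tgfb3 in the same comparison (-0.0081; -0.0081 to 0.1982), and, with 1 library left out, Tgfb2 in E71K against E71Q (-1.0989 to 0.1963), Tgfb3 there (-0.4225 to 0.1023), Tgfbr2 in E71Q against WT (-0.09 to 0.2394) and Tgfbr3 in E76K against WT (-0.2798 to 0.0638).

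The number of members called moved by over 1.5 times in E71K against WT (7; 3 when only those 6 libraries were fitted), in E71K against E71Q (4; 1 with only those 6 libraries and 8 without the libraries that lay apart) and in E76K against E76Q (4; 2 with no minimum level), and with 1 library left out in E76K against E76Q and in E113K against E113Q (4 in the full fit). With 1 library left out, the counts ran from 7 to 8 in E71K, 4 to 4 in E71Q, 4 to 5 in E76K, 6 to 6 in E76Q, 8 to 8 in E113K and 6 to 7 in E113Q, against WT. They ran from 3 to 6 in E71K against E71Q, 2 to 3 in E76K against E76Q, 2 to 3 in E113K against E113Q and 7 to 8 in the F test. Over all genes, E71K against WT had 3250 calls, 5135 after rescaling, 1442 with only its 6 libraries and 4939 without the libraries that lay apart; E71K against E71Q had 3060, 5263, 346 and 6541, and 1815 to 4713 with 1 library left out. E113K against E113Q had 3408, 5302 after rescaling and 5486 without the libraries that lay apart, and E76K against E76Q 3890 and 6054. With only their 6 libraries, E76K against WT had 6136 (4044 in the full fit) and E76Q 8276 (5403). The causes were not tested.

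Within the 9 comparisons, correlations of the deviations of same-numbered replicates ran from -0.17 to 0.25, and none had every pair over 0.1. Among groups not compared directly, E71K and E76K had every pair over 0.1 (0.17, 0.21 and 0.42), and replicate 3 of E113Q correlated with that of E71K (0.37) and E76K (0.30). With the replicate block, 7, 6, 5, 6, 8 and 6 members were called against WT in E71K, E71Q, E76K, E76Q, E113K and E113Q, and 4 in each comparison of lysine with glutamine. The fit to 6 libraries was not applicable to the F test. As read totals are unknown, no counting error can be given for the low values of Tgfbi, or of Tgfb2 and Inhba in WT.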
